A study of Tribolium castaneum with 16 samples.

Results

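Sequences of the red flour beetle assembly that had not been placed on a linkage group held 6995 of the 52384 open regions found in the series (13.4%). The regions were made by merging the peaks of all 14 peak lists wherever they overlapped by at least 1 bp, and those on sequences whose name did not begin with ChLG were taken. They fell into 2638 regions on 1284 scaffolds with names beginning with GG and 4357 regions on 290 scaffolds with names beginning with DS. The remaining 45389 regions, on the 10 linkage groups, served for comparison. The rule uses sequence names and no peak values.

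The series mapped open chromatin of the beetle, Tribolium castaneum, with FAIRE-seq. Crosslinked chromatin is broken by sonication and extracted with phenol and chloroform, and the nucleosome-poor DNA that stays in the water phase is sequenced. Embryos were whole Georgia I animals aged 0 to 24 h, 24 to 48 h or 48 to 72 h after egg laying, with 2 libraries per age, and mixed all tissues of the embryo. Larvae were last-instar animals of the pu11 strain, which carries an enhancer trap. Their brain, called CNS here after the sample titles, gave 2 libraries, and lateral epidermis taken with the wing disc gave 3 libraries from the second thoracic segment (T2, with the elytron disc) and 3 from the third (T3, with the hindwing disc). Embryo and larva thus also differed in strain, CNS was fixed for 20 min and everything else for 30 min, and library barcodes had 5 nt for embryos, 6 nt for CNS and 8 nt for epidermis. Stage, strain and barcode length cannot be told apart between embryo and larva, nor can tissue, fixation time and barcode length between CNS and epidermis. The labels do not say whether replicates came from separate collections of animals, so the p-values below measure the spread between libraries, which may be technical. The 2 genomic input libraries were not analysed here.

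Chromatin that is open to FAIRE is found at active promoters, enhancers and other sites where nucleosomes are displaced. Scaffolds stay unplaced in an assembly mostly because they are short or repetitive, and the Tribolium genome is known for abundant satellite DNA in the heterochromatin around its centromeres. Where an assembly holds fewer copies of a repeat than the genome does, reads from all copies pile up on the copies present. Repeat content, base composition and genes of the scaffolds were not analysed here, and the part of copy number in any value below was not tested.

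The lists held from 9725 to 36080 peaks. Each list gives a peak's fold enrichment, the ratio of the read pileup at its summit to the local background that the peak caller expected there. Pileup and local background were recovered from fold and p-value, and each was expressed as a multiple of the smallest background in its list, called the background multiple and the pileup multiple below. That smallest background, a measure of depth, was lowest, at 1.89 reads, in replicate 1 of the 24 to 48 h embryos and highest, at 9.85 reads, in replicate 1 of CNS. All 14 lists are of 1 genome and the same scaffolds, so a test over lists asks only whether a direction repeated from library to library.

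On GG scaffolds open chromatin filled much of a short sequence, and on DS scaffolds the pooled share covered was near that of the linkage groups. The span of a scaffold was taken up to its last called base, since lengths were not given in the lists. The median span was 1217.5 bp for GG and 16754.5 bp for DS scaffolds, and the longest were 40244 bp and 1174894 bp. Regions covered a median of 75.6% of the span of a GG scaffold and 11.7% of that of a DS scaffold, against 9.08% of a linkage group. Of the GG scaffolds, 360 (28.0%) were covered over more than 99% of their span, against 2 DS scaffolds. A single region was all that 769 GG scaffolds (59.9%) and 22 DS scaffolds (7.59%) held. Pooled over sequences, the covered share was 54.3% on GG, 9.35% on DS and 8.55% on linkage groups. A span that ends at the last called base overstates coverage, the more so where a scaffold has few regions.

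**Figure D1:**
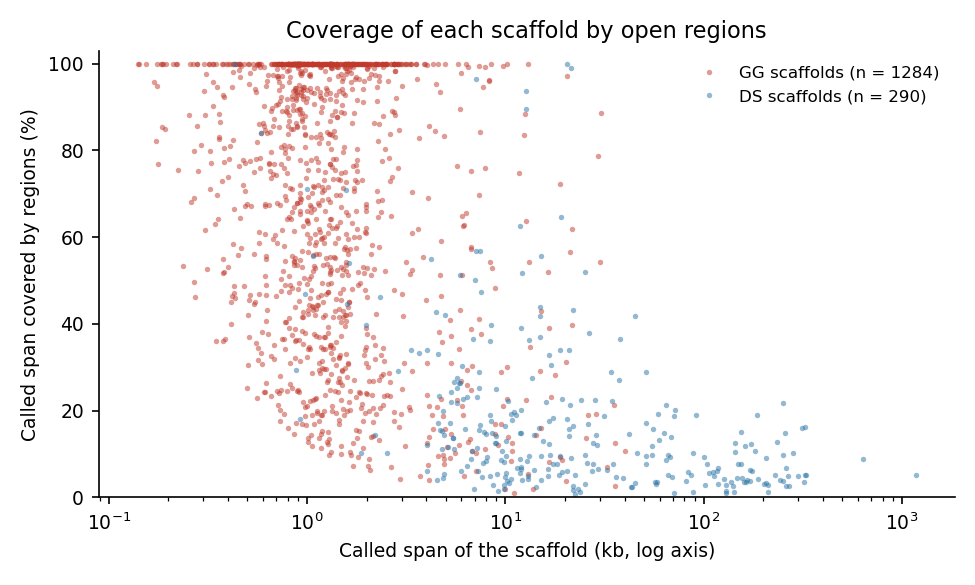
Share of the called span covered by open regions (y axis, %) against called span (x axis, kb, log axis) for 1284 GG scaffolds (red) and 290 DS scaffolds (blue), each point 1 scaffold. GG scaffolds gather at short spans and high coverage, with a median of 75.6%, and DS scaffolds at longer spans and low coverage, with a median of 11.7%.

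GG regions were also wider. The median region measured 346.5 bp on GG, 261 bp on DS and 275 bp on linkage groups, and the 90th percentile was 1288.3, 648 and 652 bp. Regions wider than 3000 bp numbered 33 on GG (1.25%), 22 on DS (0.505%) and 31 on linkage groups (0.0683%), although the linkage groups held far more regions in all. Base 1 of a sequence was the start of 448 GG regions (17.0%), 28 DS regions (0.643%) and 2 regions on linkage groups, so that many GG regions reached the end of their scaffold.

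Within lists, GG peaks were wider than peaks on linkage groups. Median GG width was 269.5 and 266.5 bp in 0 to 24 h embryos, 295 and 294 bp at 24 to 48 h, and 308 and 347 bp at 48 to 72 h. It was 186 and 207 bp in CNS, 264, 297 and 311 bp in T2, and 257, 305 and 335 bp in T3. The corresponding medians on linkage groups lay between 191 and 240 bp, and GG exceeded them in 12 of 14 lists, with both CNS lists the other way. The means were 281.6 ± 44.6 bp on GG and 220.5 ± 19.0 bp on linkage groups (SD, n = 14 each), a mean log2 ratio of 0.34 or 1.26-fold (two-sided exact sign-flip permutation test, adjusted p = 0.00391 over 8 tests). The width difference varied with scaffold length and local background. On GG scaffolds of at least 10000 bp the log2 ratio was 0.073 (exact permutation, adjusted p = 0.311), and among peaks whose local background was at most 3 times the smallest in their list it was −0.12 (exact permutation, adjusted p = 0.00273). With every list cut to its best 9725 peaks it was 0.55. DS peaks averaged 220.1 ± 11.2 bp (SD, n = 14), a log2 ratio of 0.0011 to linkage groups (exact permutation, adjusted p = 0.957). They were wider in 6 lists and narrower in 8, and among peaks with a background multiple up to 3 the DS log2 ratio was −0.068 (exact permutation, adjusted p = 0.00273).

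Peaks wider than 3000 bp were more frequent on scaffolds. On GG they numbered 12 and 12 in 0 to 24 h embryos, 18 and 13 at 24 to 48 h, 19 and 17 at 48 to 72 h, 0 and 0 in CNS, 12, 17 and 24 in T2, and 10, 23 and 29 in T3. As a share of the GG peaks of a list they made up 1.04 ± 0.556%, against 0.020 ± 0.0345% on linkage groups (SD, n = 14 each). That is 1.02 percentage points more, with 12 lists higher, 2 equal at 0 and none lower (exact sign-flip permutation, adjusted p = 0.00195). On DS the share was 0.210 ± 0.227% (SD, n = 14), 0.19 points above linkage groups, in 10 lists higher and none lower (adjusted p = 0.00391, exact permutation). Among peaks with a background multiple up to 3 the differences were 0.165 points on GG (exact permutation, adjusted p = 0.0714) and 0.0285 points on DS (adjusted p = 0.125). The DS difference was 0.446 points when all lists had equal sizes. Of the 49 wide DS peaks over all lists 18 were in T3 replicate 3.

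The fold enrichment of scaffold peaks was lower. Median GG fold was 4.06 and 3.70 at 0 to 24 h, 5.47 and 5.13 at 24 to 48 h, and 5.38 and 4.38 at 48 to 72 h. In the larva it was 2.84 and 2.28 in CNS, 4.30, 3.17 and 3.38 in T2, and 2.78, 3.03 and 2.87 in T3. These medians lay below those of linkage groups in 12 of 14 lists, the exceptions being replicate 1 of the 24 to 48 h and of the 48 to 72 h embryos. The means were 3.77 ± 1.04 on GG and 4.73 ± 0.645 on linkage groups (SD, n = 14 each), and the ratio averaged 0.776 or −0.37 on the log2 scale (exact sign-flip permutation, adjusted p = 0.00293). DS peaks averaged 4.28 ± 0.769 (SD, n = 14), 0.898 of the linkage groups or −0.15 on the log2 scale, lower in 13 of 14 lists (exact permutation, adjusted p = 0.00195). Among peaks with a background multiple up to 3 the log2 fold difference was −0.19 on GG (exact permutation, adjusted p = 0.000326) and −0.045 on DS (adjusted p = 0.0482), and at equal list sizes that of GG was −0.57.

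The lower fold on GG came with a higher pileup over a much higher local background. These measures, and the split at a background multiple of 3, were chosen after the data had been seen. The median background multiple of GG peaks was 4.80 and 4.79 at 0 to 24 h, 5.58 and 5.88 at 24 to 48 h, and 5.58 and 6.46 at 48 to 72 h. It was 2.25 and 7.41 in CNS, 6.95, 4.80 and 4.80 in T2, and 5.97, 4.80 and 3.72 in T3. It averaged 5.27 ± 1.32 on GG and 1.48 ± 0.236 on linkage groups (SD, n = 14 each), 3.47-fold higher, with no overlap between the classes and the same direction in 14 of 14 lists (exact sign-flip permutation, adjusted p = 0.000163 over 4 tests). The highest background multiple of a GG peak was 24.48 in every list but CNS replicate 1, where it was 20.8. Whether 1 control library gave the background of all lists is not stated, so the 14 lists may not be independent measures of it. The median pileup multiple averaged 24.0 ± 9.78 on GG and 8.63 ± 1.56 on linkage groups (SD, n = 14 each), 2.58-fold higher in 14 of 14 lists (exact permutation, adjusted p = 0.000163). Lists hold only peaks past the caller's threshold, so a peak over a higher background needs a higher pileup and can pass at a lower fold. The pileup and fold differences are thus not independent of that in background. On DS the background multiple was 1.79 ± 0.521, 1.18-fold that of linkage groups and higher in 13 of 14 lists (exact permutation, n = 14, adjusted p = 0.000244), and the pileup multiple was 9.74 ± 2.23, 1.12-fold and higher in 14 of 14 (adjusted p = 0.000163). On GG scaffolds of at least 10000 bp the log2 ratios to linkage groups were 0.98 for background and 0.51 for pileup, against 1.80 and 1.37 on all. With the lists averaged to 6 groups, where the smallest possible p is 0.03125, none of the width, fold, wide-peak and sharing differences passed the threshold of 0.05 after adjustment, with every direction as before.

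**Figure D2:**
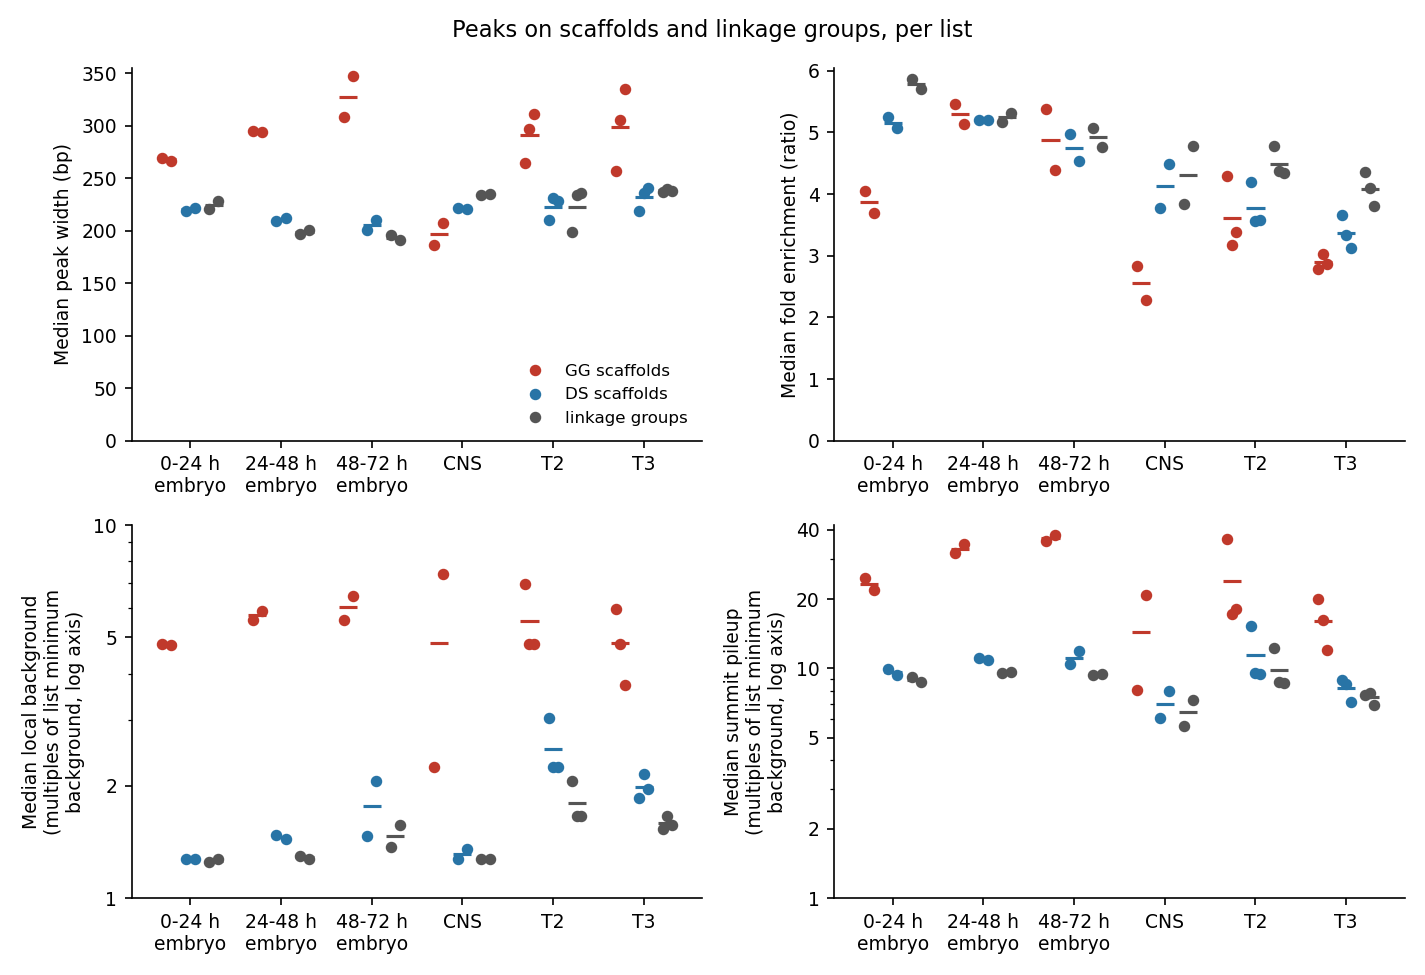
Median peak width (bp), fold enrichment (ratio), local background and summit pileup (both as multiples of the smallest background in the list, log axes) of the peaks on GG scaffolds (red), DS scaffolds (blue) and linkage groups (grey) in each of the 14 lists, by group on the x axis. Points are lists and bars group means. GG points stand above grey points for background and pileup in every list, and below them for width in CNS.

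On GG scaffolds the background was highest where the scaffold was short. On GG scaffolds spanning up to 2000 bp, 988 in number, the median background multiple was 6.37 and the pileup multiple 29.3. On the 249 spanning 2000 to 10000 bp they were 4.31 and 15.4, and on the 47 longer ones 2.94 and 11.4. Fold moved little over these classes, at 3.65, 3.33 and 3.63. On the 59 DS scaffolds spanning more than 100000 bp, which held 2658 of the 4357 DS regions, the background multiple was 1.37, the pileup multiple 8.17 and the fold 4.55, values close to those of the linkage groups. The 134 DS scaffolds of 10000 to 100000 bp had a background multiple of 2.74, a pileup multiple of 10.9 and a fold of 3.56. The median background multiple exceeded 3 on 706 GG scaffolds (55.0%), 84 DS scaffolds (29.0%) and none of the 10 linkage groups.

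No recovered pileup exceeded 250 in any list, and GG peaks met that value most often. A pileup of 250 was reached by 760 GG peaks on 160 scaffolds, 66 DS peaks on 16 scaffolds and 7 peaks on 3 linkage groups. On GG the number per list was 98 and 53 at 0 to 24 h, 97 and 58 at 24 to 48 h, 101 and 90 at 48 to 72 h, 0 and 0 in CNS, 4, 30 and 58 in T2, and 24, 42 and 105 in T3. The CNS lists, the deepest with smallest backgrounds of 9.85 and 5.91 reads, had none, and their highest GG pileups were 248 and 249. The same pileup of 250 stands for different multiples of the background in different lists, 25.4 in CNS replicate 1, 42.3 in CNS replicate 2 and 132.5 in the 24 to 48 h embryo replicate 1.

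The share of a list's peaks that lay on GG scaffolds differed widely between groups. It was 4.36 and 3.97% at 0 to 24 h, 6.30 and 5.26% at 24 to 48 h, and 6.19 and 8.65% at 48 to 72 h. In CNS it was 1.74 and 3.24%, in T2 12.9, 9.02 and 8.64%, and in T3 6.64, 8.66 and 9.06%. Both CNS lists lay below every other list, and the 0 to 24 h embryos came next. The bases covered spread further still: GG scaffolds held 1.37 and 2.86% of the covered bases in CNS, 7.35 and 6.40% at 0 to 24 h, 14.6 and 21.8% at 48 to 72 h, and 25.5, 16.3 and 16.6% in T2. The share in T2 replicate 1 belonged to the shortest list, with 9725 peaks.

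CNS had 2.49 ± 1.06% of its peaks on GG scaffolds (SD, n = 2) and epidermis, T2 and T3 together, 9.15 ± 2.04% (SD, n = 6). The difference of −6.66 points had no overlap between the sides, and its exact permutation p of 0.0357 (two-sided) was the smallest that 28 splits allow (adjusted p = 0.107 over 6 tests). It was −2.15 points among peaks with a background multiple up to 3, −1.05 points on scaffolds of at least 10000 bp and −14.9 points as a share of covered bases. All embryos had 5.79 ± 1.69% (SD, n = 6) and all larval lists 7.49 ± 3.56% (SD, n = 8), a difference of −1.70 points that did not pass the threshold (exact permutation p = 0.306, adjusted p = 0.459). T2 had 10.2 ± 2.35% and T3 8.12 ± 1.297% (SD, n = 3 each), 2.07 points apart (exact permutation p = 0.50, where no p below 0.1 is possible). Without T2 replicate 1 that difference was 0.714 points, and without CNS replicate 1 the embryo minus larva difference was −2.52 points, against −0.923 without T2 replicate 1. A comparison of embryos with epidermis alone, added after the data had been seen, gave −3.36 points (exact permutation p = 0.00649, n = 6 each, adjusted p = 0.0195). At equal list sizes of 9725 peaks it was −3.38 points (adjusted p = 0.0260, exact permutation), with 7.55% in embryos and 10.9% in epidermis, and CNS stood at 1.16%. Among peaks with a background multiple up to 3 it was −1.08 points (exact permutation p = 0.0325, adjusted p = 0.107).

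The DS share varied less. It lay between 6.81 and 7.22% in the 6 embryo lists, was 5.73 and 5.94% in CNS, 7.83, 8.58 and 8.69% in T2, and 7.14, 8.80 and 9.92% in T3. CNS averaged 5.83 ± 0.145% (SD, n = 2) and epidermis 8.49 ± 0.944% (SD, n = 6), a difference of −2.66 points with no overlap (exact permutation p = 0.0357, the smallest possible, adjusted p = 0.107). It was −1.56 points at equal list sizes, and −1.59 points among peaks with a background multiple up to 3, where the exact permutation p was 0.143. Embryos averaged 7.01 ± 0.147% (SD, n = 6) and larvae 7.83 ± 1.47% (SD, n = 8), −0.81 points apart (exact permutation p = 0.201, adjusted p = 0.402), a difference that was 0.44 points at equal list sizes. T2 and T3 averaged 8.36 ± 0.471% and 8.62 ± 1.40% (SD, n = 3 each), and their difference of −0.25 points (exact permutation p = 0.80) was 0.51 points at equal list sizes, 0.399 without T3 replicate 3 and −0.992 without T3 replicate 1. Against epidermis alone embryos were 1.48 points lower in DS share (exact permutation p = 0.00433, n = 6 each, adjusted p = 0.0195), but with lists cut to equal sizes they were 0.048 points higher (p = 0.864, exact permutation).

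**Figure D3:**
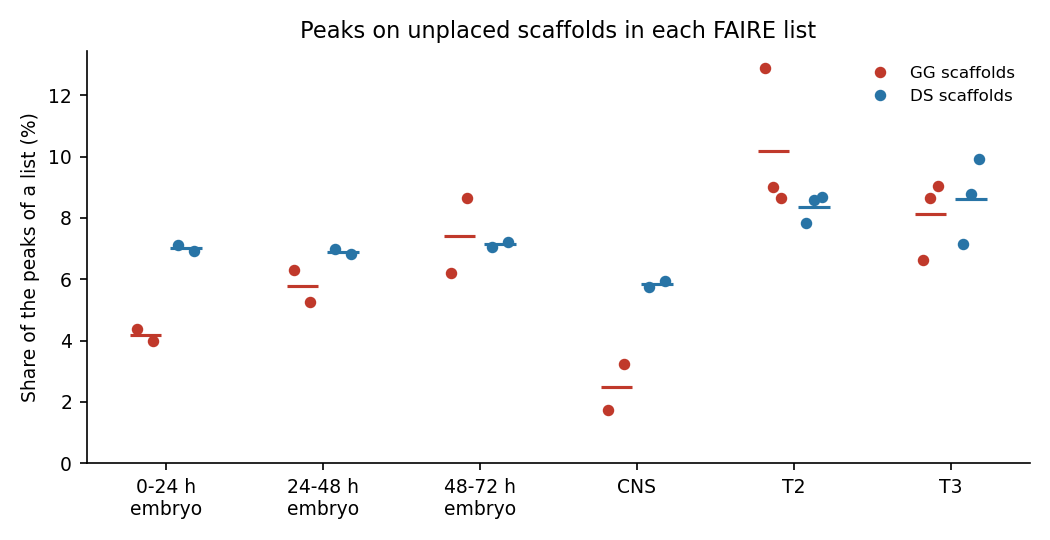
Share of the peaks of each list (y axis, %) that lie on GG (red) and DS scaffolds (blue), by group on the x axis; points are lists and bars group means. GG shares run from 1.74% in CNS replicate 1 to 12.9% in T2 replicate 1, and DS shares stay between 5.73 and 9.92%.

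CNS called most of the linkage group regions and few of those on GG scaffolds. CNS replicates 1 and 2 had a peak in 69.4 and 63.9% of the linkage group regions, more than any other list, but in 21.2 and 29.8% of the GG regions. In the other direction T3 replicate 3 had a peak in 77.0% of GG and 42.1% of linkage group regions, and T2 replicates 2 and 3 in 53.4 and 54.4% of GG and 34.7 and 35.0% of linkage group regions. The 0 to 24 h embryos had the CNS order, with 43.6 and 43.4% of GG and 57.3 and 62.9% of linkage group regions. On DS scaffolds CNS averaged 43.9 ± 1.35% (SD, n = 2) and T3 42.1 ± 10.9% (SD, n = 3).

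**Figure D4:**
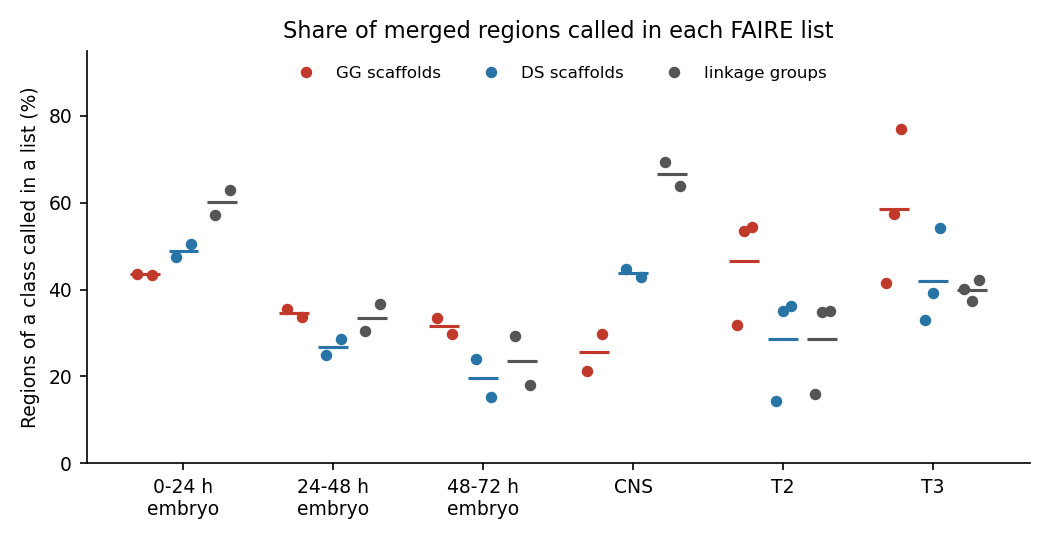
Share of the merged regions of a class (y axis, %) that had a peak in each list, for GG scaffolds (red), DS scaffolds (blue) and linkage groups (grey), by group on the x axis; points are lists and bars group means. CNS stands highest for linkage groups, at 69.4 and 63.9%, and lowest for GG scaffolds, at 21.2 and 29.8%.

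GG regions were called in 1 or 2 groups more often than linkage group regions, and the share called in all 6 groups was near that of all regions. Of all regions 14.9% had a peak in each of the 6 groups, and on GG 462 did (17.5%), on DS 496 (11.4%) and on linkage groups 6858 (15.1%). A single group called 803 GG regions (30.4%), 1528 DS regions (35.1%) and 12150 linkage group regions (26.8%), against 27.6% of all. The pattern T3 alone, held by 7.82% of all regions, was the most frequent on GG with 539 (20.4%), and T2 and T3 alone, held by 6.45% of all, followed with 531 (20.1%). Those patterns took 737 (16.9%) and 550 (12.6%) of the DS regions and 2818 (6.21%) and 2300 (5.07%) of the linkage group regions. CNS alone, 11.9% of all regions, took 40 GG regions (1.52%), 329 DS regions (7.55%) and 5841 linkage group regions (12.9%). The 0 to 24 h embryo alone, 7.17% of all, took 161 on GG and 409 on DS. T3 replicate 3 weighed on the first of these. A single list called 601 GG regions (22.8%) and 1057 DS regions (24.3%), against 18.0% of all regions, and 419 and 538 of them were its own. Regions called in that list only made up 15.9% of GG, 12.3% of DS and 3.45% of linkage group regions, against 4.82% of all.

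Within lists, the share of peaks that lay in regions called in all 6 groups was 42.7 ± 10.5% for GG and 39.4 ± 12.2% for linkage groups (SD, n = 14 each). These regions are 1 fixed set that the same lists defined, so the 14 values of a class are not independent. A list with fewer peaks on a class has a higher share there for the same regions. The p-values below therefore do not count 14 separate tests of sharing. The GG difference of 3.35 points was positive in 7 lists and negative in 7 (exact sign-flip permutation p = 0.468, adjusted p = 0.535). By the same exact permutation test it was −19.3 points without CNS replicate 2 (adjusted p = 0.00234) and −21.2 points at equal list sizes (adjusted p = 0.00237), so that neither its size nor its direction held. For DS the share was 33.2 ± 10.1% (SD, n = 14), 6.15 points below linkage groups and lower in 12 of 14 lists, the CNS lists being higher (exact permutation, adjusted p = 0.00391). Without CNS replicate 2 the DS difference was −9.88 points.

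**Figure D5:**
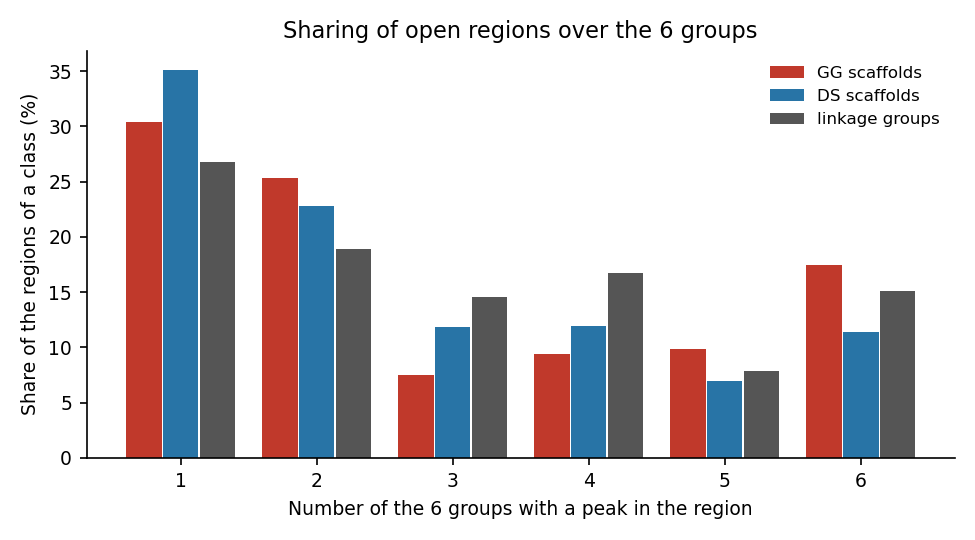
Share of the regions of a class (y axis, %) by the number of the 6 groups that called them (x axis), for GG scaffolds (red), DS scaffolds (blue) and linkage groups (grey). GG has 30.4% in 1 group, 7.47% in 3 and 17.5% in 6.

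Sharing followed the background multiple in each class. Among regions with a background multiple up to 3, 62 of 1457 GG regions (4.26%), 9.21% of DS regions and 13.6% of linkage group regions were called in all 6 groups. Above 3 these shares were 400 of 1181 GG regions (33.9%), 21.1% on DS and 38.2% on linkage groups.

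Regions called in every other library but not in CNS were more frequent on GG scaffolds than elsewhere. A peak in all 12 lists other than CNS was found in 499 GG regions (18.9%), 263 DS regions and 3239 linkage group regions, against 7.64% of all regions. Of these, 122 GG regions (4.62%), 39 DS regions (0.895%) and 55 linkage group regions (0.121%) had a peak in neither CNS list, which 0.412% of all regions did. A further 253 GG regions (9.59%) had a peak in CNS replicate 2 and not in replicate 1, against 37 on DS (0.849%), 29 on linkage groups (0.0639%) and 0.609% of all. CNS replicate 1 without replicate 2 had a peak in 7 GG regions, against 0.0267% of all, and the remaining 117 had a peak in both CNS lists, and so in all 14. The 122 became 375 (14.2%) without CNS replicate 2, with 0.186% on linkage groups. At equal list sizes, which give another set of merged regions, they became 175 of 1330 (13.2%), with 0.789% on linkage groups. Of the 122, 119 had a background multiple above 3, as did 477 of the 499 GG regions called in all 12 other lists.

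The GG regions that CNS missed in part were those with the highest background. In the other 12 lists the median background multiple was 20.5 for the 260 regions with a peak in 1 CNS list, 8.42 for the 122 with none and 6.27 for the 117 with both. The median fold of the 260 was 3.43 in the other lists and 1.51 in CNS. For the 253 regions called in CNS replicate 2 alone of the CNS lists, the median background multiple of 20.8 amounts to 204.5 reads at the depth of CNS replicate 1, at which a pileup of 250 gives a fold of 1.22. At the depth of CNS replicate 2 the same pileup gives 2.03, and at that of the 24 to 48 h embryo replicate 1 it gives 6.25. Whether 250 is a limit of the peak caller or of a filter is not stated, and its part in the CNS pattern was not tested. The 122 regions with no CNS peak had the lower background of 8.42.

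In the GG regions of all 14 lists the median fold was lower in both CNS lists than in any other. For CNS replicate 1 this cannot be read as a difference, since the fold that a pileup of 250 gives was lowest there. In the 117 GG regions found in all 14 lists, the median of the highest fold averaged 6.20 ± 1.05 at 0 to 24 h, 10.3 ± 0.515 at 24 to 48 h and 8.91 ± 1.26 at 48 to 72 h (SD, n = 2 each). CNS reached 2.85 ± 0.340 (SD, n = 2), T2 6.30 ± 0.0601 and T3 5.25 ± 0.428 (SD, n = 3 each). The background multiple in these regions was alike over the groups, from 5.65 in T2 to 6.13 at 24 to 48 h. The pileup multiple was 18.7 in CNS, with 20.8 in replicate 2, and from 32.4 to 71.3 elsewhere. In CNS replicate 1 a pileup of 250 is a multiple of 25.4, below that range. At the median background of these regions a pileup of 250 gives a fold of 4.26 in CNS replicate 1, below the median fold of every list outside CNS, the lowest of which was 4.85 in T3 replicate 3. Since a pileup of 250 could not give the median fold of those lists, the median of 2.61 in CNS replicate 1 is not compared with them. The fold that a pileup of 250, the highest found, gives in a list is called its limit here. CNS replicate 2 had a limit of 7.27 and a median fold of 3.09, and T3 replicate 3, with a similar limit of 7.20, had a median fold of 4.85. The medians of the 24 to 72 h embryo lists, from 8.02 to 10.7, lay above the limit of CNS replicate 2. The limit was between 8.88 and 20.6 in the 11 remaining lists. On linkage groups the corresponding folds were 7.67 in CNS, 10.9 at 0 to 24 h and between 6.71 and 8.79 in the other groups, and on DS scaffolds 7.53 in CNS and between 6.35 and 10.4 elsewhere. These group differences were not tested, since presence in all lists chose the regions. Called in all 14 lists were 6.59% of all regions, 117 GG regions (4.44%), 187 DS regions (4.29%) and 3148 on linkage groups (6.94%). Without CNS replicate 1 the GG count was 370 (14.1%), with 7.4% on linkage groups. At equal list sizes, which give another set of merged regions, it was 32 of 1330 GG regions (2.41%). The DS count was then 101 of 1690 (5.98%), and the share on linkage groups 8.94%.

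Regions called on 1 side of a comparison and not on the other were distributed unevenly, and not all in the same direction. The comparisons of CNS with epidermis, and of T2 with T3, took no account of embryo lists. A peak in all 6 epidermis lists and no CNS list was found in 304 GG regions (12.8%), 126 DS regions (3.32%) and 563 linkage group regions (1.36%), against 2.09% of the 47567 regions with a larval peak. The GG count was 573 without CNS replicate 2 and 529 at equal list sizes. As shares of all GG regions the 304, 573 and 529 made up 11.5, 21.7 and 39.8%, against 1.24, 1.46 and 6.96% on linkage groups. Of the 304, 122 also had a peak in all 6 embryo lists. A background multiple above 3 was found in 276 of the 304, against 1166 of the 2378 GG regions with a larval peak. Peaks in both CNS lists and no epidermis list occurred in 108 GG regions (4.54%), 605 DS regions (15.9%) and 10614 linkage group regions (25.6%), against 23.8% of all. At equal list sizes, which give another set of merged regions, the counts were 21 on GG and 180 on DS. Of all regions of the class these were 1.58 and 10.7%, against 15.9% on linkage groups. The full lists gave 4.09, 13.9 and 23.4% on that base. Every embryo list and no larval list called 7 GG (0.265%) and 6 DS regions (0.138%), against 0.0706% of all regions. At equal list sizes the GG share was 0.752% and that on linkage groups 0.789%. Without the 48 to 72 h embryo replicate 2 the counts were 14 (0.534%) and 29 (0.666%), with 0.152% on linkage groups. Every larval list and no embryo list called 4 GG (0.152%) and 26 DS regions (0.597%), against 0.722% of all. Without T2 replicate 1 these were 13 (0.493%) and 57 (1.31%), with 1.73% on linkage groups. Without CNS replicate 2 the 4 on GG were 8 (0.303%), with 0.997% on linkage groups. All 3 T3 lists and no T2 list called 6 GG (0.273%) and 37 DS regions (1.3%), against 1.76% of the regions with an epidermis peak. The opposite class, 0.00333% of them, had none on either kind of scaffold.

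Single regions were picked by rank of fold or width, so they are extremes of their classes and their values are a description, without test. Of the GG regions that every list called, the 3 whose lowest fold was highest lay on GG694598 from 361 to 997, GG694547 from 3762 to 4062 and GG694551 from 196 to 483. On GG694598 the fold was 15.6 and 13.3 at 0 to 24 h, 13.8 and 16.5 at 24 to 48 h, 14.4 and 11.5 at 48 to 72 h, 7.44 and 11.4 in CNS, 9.78, 10.4 and 10.2 in T2, and 9.75, 9.87 and 7.74 in T3. Every embryo value there stood above every larval one, the closest being 11.5 at 48 to 72 h and 11.4 in CNS replicate 2. For CNS and T3 replicate 3 this order is not read as a difference, since the limit on fold was lower there. The largest pileup in the region was 236, near the highest found, 250. That highest pileup is a multiple of 25.4 and 42.3 in CNS and 43.4 in T3 replicate 3. In all embryo lists and the remaining larval lists it is at least 53.0. The part of the limit in this order was not tested. Fold ran from 7.08 to 17.1 on GG694547 and from 6.44 to 19.6 on GG694551, and the 0 to 24 h embryos were highest on both.

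Among the named GG regions the highest folds were those of an embryo region. It began at base 1 of GG694831 and ended at 939, with folds of 40.8 and 35.7 at 0 to 24 h, 31.9 and 37.3 at 24 to 48 h, and 35.9 and 24.1 at 48 to 72 h, and no larval peak. Its background multiple was 1.0 in the embryo lists, unlike most GG regions. The other named embryo region, on GG695473 from 2689 to 3007, had folds from 5.66 to 9.98, also at a background multiple of 1.0. Since embryos were Georgia I and larvae pu11 animals, a sequence present in the one strain and not in the other cannot be told apart from a region closed in larvae.

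The named larval GG regions had a peak in all 8 larval lists and in no embryo list. On GG694203, from 1278 to 2990, the fold was 4.93 and 7.47 in CNS, 7.82, 8.29 and 8.70 in T2, and 9.96, 8.05 and 7.55 in T3. Scaffold GG695449 held a pair of contrasting regions. From 8549 to 8857 it had a peak in all 8 larval lists, with folds from 3.32 to 5.95, and from 10201 to 10732 it had a peak in CNS only, with folds of 12.1 and 13.1 at a background multiple of at most 1.18. The other named CNS region, on GG695017 from 1082 to 1428, also had a peak in all 6 embryo lists, with folds of 9.59 and 11.6 in CNS and from 3.18 to 10.01 in embryos.

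Both named epidermis regions on GG were called in all 12 lists other than CNS. The region on GG695812 from 1 to 1675 had folds of 11.4, 9.56 and 10.5 in T2, 7.39, 8.59 and 7.91 in T3, and from 6.40 to 18.0 in embryos, with a background multiple of up to 19.1. That on GG694198 from 1944 to 2245 had folds from 7.13 to 11.0 in epidermis, 4.04 and 3.44 at 0 to 24 h and from 7.37 to 18.6 in the older embryos. The widest GG region covered all called bases of GG695826, from 1 to 13020, with a peak in every list but CNS replicate 1. Its fold was 1.74 in CNS replicate 2, between 2.65 and 4.76 in epidermis and up to 7.001 at 24 to 48 h, over a median background multiple of 16.0. The second widest, on GG695541 from 9771 to 20397, had folds from 3.28 to 6.33 over a median background multiple of 1.66 in the 24 to 72 h embryos and the epidermis, and no peak in CNS or at 0 to 24 h.

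On DS scaffolds the 3 shared regions ranked highest had folds of up to 29.9. On DS497744.1 from 10326 to 11599 the fold was 22.3 and 20.9 at 0 to 24 h, 18.9 and 22.0 at 24 to 48 h, 25.9 and 19.0 at 48 to 72 h, 12.9 and 20.1 in CNS, 16.6, 17.9 and 19.6 in T2, and 20.7, 18.2 and 14.9 in T3. The groups overlapped, and CNS replicate 1, the deepest list, was lowest. DS497665.1, the scaffold with the most regions (200 over 1174894 bp), held the 2 next, from 890527 to 890923 with folds from 9.94 to 25.4 and from 1007647 to 1008098 with folds from 9.69 to 29.9. It also held a region of every larval list and no embryo list, from 353515 to 353892, with folds from 5.15 to 8.41. From 658269 to 659117 the same scaffold had folds of 20.7 and 28.5 in CNS and from 8.56 to 15.5 in embryos, with no epidermis peak. From 937597 to 937906 it had folds from 6.17 to 10.8 in epidermis and from 5.13 to 8.76 in the 4 embryo lists up to 48 h, with no CNS peak. Of its 200 regions, 17 were called in all 14 lists, 33 in both CNS lists and no epidermis list, and 4 in all epidermis lists and no CNS list.

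The remaining named DS regions repeated these classes. On DS497672.1 from 108635 to 109428 the fold was 19.9 and 28.5 in CNS and from 11.3 to 28.9 in embryos, without a peak in epidermis. Embryo regions lay on DS497671.1 from 48046 to 48309, with folds from 6.47 to 11.0, and on DS497704.1 from 144316 to 144652, with folds from 5.93 to 10.3. A larval region lay on DS497725.1 from 73412 to 73855, with folds of 8.57 and 11.4 in CNS and from 4.72 to 9.68 in epidermis. Another epidermis region of DS497665.1, from 1048772 to 1048964, had folds from 5.75 to 9.11 in epidermis and of 4.48 and 5.57 at 0 to 24 h. The widest DS regions, on DS497958.1 from 1 to 20419 and on DS497731.1 from 176434 to 186310, had no CNS peak, and folds from 2.07 to 6.45 and from 2.45 to 7.10.

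Scaffolds rich in regions differed between the kinds. After DS497665.1, most regions were found on DS497673.1 (190 over 635263 bp) and DS497711.1 (156 over 324058 bp), and the 8 richest DS scaffolds held 1079 of the 4357 regions (24.8%). The 8 richest GG scaffolds held 7.28%. Most regions among these were on GG694963 with 30, GG695415 with 28 and GG695857 with 28. GG695857 had a median background multiple of 6.46 and a median fold of 3.96 in 14 lists. GG695415 had a background multiple of 1.00 and a fold of 5.11, was covered over 88.7% of its 30339 bp, and had peaks in 9 of the 14 lists.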

How the data were processed

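Per the submitters' processing notes, Trimmomatic 0.32, Bowtie2 2.2.3, SAMtools 0.1.12a, deepTools 2.5.2 and MACS2 2.1.1.20160309 were used; their settings, the control library and the genome build are not given in the sources used here. The authors deposited 1 list of narrow peaks per FAIRE library. The deposited fold enrichment is a ratio of the summit pileup to the local background. Further deposited columns hold the −log10 p-value and −log10 q-value per peak, whose smallest −log10 q per list was near the value for q = 0.05. The deposited score, derived from −log10 q, was not used. The deposited start, end and summit positions are of no measured unit, and are given here from 1.

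Peaks were merged at an overlap of 1 bp. Pileup and background were solved for each of 323093 peaks from fold = (pileup + 1) / (background + 1) and the upper Poisson tail, and 323086 pileups were whole within 0.02. Total reads are unknown. Per list, medians or shares on scaffolds and linkage groups were compared by exact two-sided sign-flip permutation (16384 flips), and shares between groups by exact two-sided permutation of lists. Benjamini-Hochberg adjustment ran over each family of 8, 6, 4 or 24 tests, with 0.05 as the threshold. The code was tested on simulated data. Python 3.11.15 with numpy 2.4.6, pandas 2.3.3 and scipy 1.17.1 was used. Samples were grouped by title.

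The members, measures and named regions were chosen with earlier results of these data known. Named are, for GG and DS apart, the 3 regions of all 14 lists whose lowest fold was highest, the 2 widest, the 2 ranked likewise in each one-sided class (embryo, larva, CNS, epidermis), and the 3 scaffolds with the most regions. A region's fold in a list is its highest. Alternatives were the best 50% of each list, equal list sizes, scaffolds of at least 10000 bp, other merging and sharing rules, group means, a replicate block, and each list left out. After the data had been seen, background and pileup, a background limit and comparisons without CNS were added.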

Additional observations from a re-analysis of the deposited data

Results flagged for a closer look

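Whether the contrast of scaffolds with linkage groups differed between sides of the study was asked in 24 tests, and 8 had an unadjusted exact permutation p below 0.05, none an adjusted p below 0.05. Adjusted p was 0.138 for wide GG peaks of embryo and larva and 0.122 for the other 7. In the comparisons of CNS with epidermis (n = 2 and 6) the exact permutation p was 0.0357, the smallest possible, and the sides did not overlap.

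The log2 ratio of GG to linkage group width was −0.26 ± 0.10 in CNS and 0.35 ± 0.13 in epidermis (SD), a difference of −0.61. The excess of wide GG peaks was 0 in both CNS lists and 1.02 ± 0.229 points in epidermis, −1.02 points apart. The GG excess in sharing over all 6 groups was 29.9 ± 18.8 points in CNS and −6.33 ± 5.89 in epidermis, 36.2 points apart, and that of DS was 2.73 ± 1.62 and −11.2 ± 3.55 points, 13.9 apart. A region called in all 6 groups must have a CNS peak, and CNS called a smaller share of scaffold regions than of linkage group regions. These sharing differences are therefore not independent of that smaller share. The log2 ratio of DS to linkage group fold was −0.056 ± 0.049 in CNS and −0.27 ± 0.040 in epidermis, 0.21 apart.

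Between embryo and larva (n = 6 and 8) the excess of wide GG peaks was 1.35 ± 0.430 and 0.766 ± 0.511 points, 0.581 apart (exact permutation p = 0.04995). The DS log2 ratio in width was 0.048 ± 0.067 and −0.034 ± 0.062, 0.083 apart (p = 0.0346, exact permutation), and in fold −0.077 ± 0.073 and −0.21 ± 0.10, 0.14 apart (p = 0.0216, exact permutation). The sides overlapped in all 3.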

How the results depend on the processing

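Of 136 values under alternatives that kept every library or left out both CNS libraries, 110 kept direction and side of the threshold, 9 fell short of it, 3 newly passed it and 14 changed direction. The cause was not tested. The GG sharing difference became −14.2 points in the best 50% of each list, −21.2 at equal list sizes, −13.4 on long scaffolds, −7.13 where a group had to call a region in all its lists and −21.2 at a background multiple up to 3. On long scaffolds the log2 width ratio was 0.073 for GG and −0.0012 for DS. With group means the GG values were 0.34 for width, −0.36 for fold and 1.01 points for wide peaks, and the DS values −0.14 for fold, 0.189 points for wide peaks and −5.31 points for sharing, none past the threshold. At a background multiple up to 3 the log2 width ratio was −0.12 for GG and −0.068 for DS, the wide-peak difference 0.165 points for GG and 0.0285 for DS, and the GG share of T2 minus T3 −0.0734 points.

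The DS share of embryo minus larva became 0.426 points in the best 50% and 0.439 at equal list sizes, and that of T2 minus T3 0.152 and 0.514. Without both CNS libraries embryo minus larva passed the threshold, at −3.36 points for GG and −1.48 for DS, and at equal list sizes it was −3.38 for GG and 0.048 for DS. Leaving out each list in turn, GG sharing ran from −19.3 to 8.28 points, the DS log2 width ratio from −0.0096 to 0.0099 and the DS share of T2 minus T3 from −0.992 to 0.399 points.

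With a replicate block the GG share differences were again −1.70 points for embryo minus larva, −6.66 for CNS minus epidermis and 2.07 for T2 minus T3, with adjusted p of 0.536, 0.333 and 0.75. No pairing by number was seen: over 42957 regions the correlation of same-numbered libraries lay between −0.145 and 0.0992 in 31 pairs. Between groups of 2 libraries, replicates 1 and replicates 2 gave the same value. The values are thus not independent, and they do not measure how alike whole libraries were. Whether animals were shared cannot be told from them.

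Read totals are unknown, CNS has 2 lists, and no comparison of 3 with 3 lists can give a p below 0.1.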
